A study of Homo sapiens with 36 samples.

Results

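Glycosyltransferases are Golgi enzymes that build sugar chains on proteins and lipids, and carbohydrate sulfotransferases add sulfate to those chains. The genes described here are the protein-coding genes of the deposited count table whose symbols start with GALNT, GCNT, B3GNT, B4GALT, B3GALT, ST3GAL, ST6GAL, ST6GALNAC, ST8SIA, FUT, MGAT, CHST or CSGALNACT followed by a digit. This rule gave 101 genes of the 61805 in the table. The study sequenced polyadenylated RNA as 51 bp paired reads from 36 libraries, with 12 groups of 3. LNCaP is an established, androgen-dependent line from a prostate tumour, and 42D came from LNCaP and resists the androgen receptor blocker enzalutamide. LNCaP was sampled as 4 lines, NT3, sgT33-5, sgT33-5_MC_C2 and sgT33-5_MC_F2 (the last pair are written C2 and F2 below), and 42D was sampled as NT3 and sgT33-5. Each line received DMSO, the vehicle, or 5 nM R1881, a synthetic androgen, for 6 h, and all 12 groups had first been kept for 3 days in hormone-stripped serum. The labels do not expand the line names; the series title names loss of TRIM33, a ubiquitin ligase, so sgT33-5 is taken here as the guide that targets it and NT3 as the control. The labels do not say whether replicates were separate cultures or whether C2 and F2 are single clones, so p-values measure the spread between these samples.

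These enzymes belong to several pathways, and some compete for the same chain ends. GALNT enzymes start mucin-type O-glycans by placing GalNAc on serine or threonine, GCNT enzymes branch them, and B3GNT, B4GALT and B3GALT enzymes lengthen the branches with GlcNAc and galactose. Sialyltransferases (ST3GAL, ST6GAL, ST6GALNAC, ST8SIA) and fucosyltransferases (FUT) cap or decorate the chains, MGAT enzymes set the branching of N-glycans, CSGALNACT enzymes place the first GalNAc of a chondroitin sulfate chain on its proteoglycan linker, and CHST enzymes sulfate chondroitin, dermatan and other glycans. In prostate cells several of them, such as the sialyl-Tn synthase ST6GALNAC1 and the core 2 branching enzyme GCNT1, are known for their response to androgen.

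TRIM33 mRNA was lower in each sgT33-5 line than in NT3 of the same cell line, and was still detected. With DMSO the log2 differences were -0.96 for LNCaP sgT33-5, -1.41 for C2, -1.14 for F2 and -0.55 for 42D. Library totals ran from 13900744 to 19793268 counts, and the 101 genes took 0.321% to 0.402% of them. All 9 luminal prostate markers were above 1 CPM (read counts scaled to the library total) in both cell lines. The summed basal markers reached at most 0.614 CPM in a library and the summed leukocyte markers at most 0.796 CPM. Of the fibroblast and endothelial markers, 2 and 1 were above 1 CPM, with sums of 21.0 to 36.7 CPM and 7.98 to 22.9 CPM in LNCaP and of 25.1 to 35.0 CPM and 1.57 to 3.40 CPM in 42D. Mitochondrial genes took 2.14% of counts in LNCaP sgT33-5 DMSO replicate 3 and 2.40% in its R1881 replicate 1, while the remaining LNCaP libraries ranged from 4.16% to 6.66%.

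Of the 101 genes, 69 had counts enough to be tested in at least 1 of the fits, 56 within LNCaP and 66 within 42D. The other 32 included GALNT5, GALNT8, GALNT9, GCNT3, GCNT4, 5 of the 8 B3GNT genes, ST6GAL2, FUT2, FUT5, FUT6, FUT7, MGAT3 and 6 of the 15 CHST genes. GCNT7, B3GNT3 and CHST4 had no count in any of the 36 libraries. All 7 B4GALT genes and both CSGALNACT genes were tested in each cell line. GALNT13, GALNT15, GALNT16, GALNT17, GALNT6, B3GALT1, B3GALT5, ST6GALNAC5, ST8SIA2, FUT9, MGAT5B, CHST13 and CHST9 passed the count filter in 42D and not in LNCaP, while GALNT12, B3GNT9 and ST6GALNAC6 passed it in LNCaP and not in 42D. Reads of some members cannot be told apart from those of a gene on the same bases: 93.2% of GALNT4 exon bases are shared with another gene, and 91.9% of MGAT2 bases lie under a gene on the opposite strand, and the strand setting of the counting is not given in the sources used here. FUT3, FUT5 and FUT6 are close paralogs, and reads between them may be split.

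Levels between genes were compared per length, as CPM per kb of exon. ST3GAL1, which adds α2,3-linked sialic acid to core 1 O-glycans, stood highest in both lines before hormone, at 167.8 ± 7.41 CPM per kb in LNCaP NT3 (SD, n = 3) and 74.3 ± 0.561 in 42D NT3. It held 39.2 ± 1.11% of all counts of the 101 genes in LNCaP NT3 with DMSO and 19.1 ± 0.0809% in 42D NT3. GALNT1, a broadly expressed initiating enzyme, came next in LNCaP at 39.6 ± 2.81 CPM per kb and stood at 38.0 ± 2.0 in 42D. In LNCaP the galactosyltransferase B4GALT1 followed at 33.8 ± 3.42 CPM per kb, a gap to GALNT1 smaller than their summed SDs. In 42D the second place was shared by GALNT1 and B4GALT2 (37.8 ± 0.297 CPM per kb), which did not differ beyond their spread. The members that the results turn on lie, in GRCh38 as the deposited table gives them, at chr8:19404161-19758029 (CSGALNACT1), chr3:143119771-143124014 (CHST2), chr17:76624761-76643786 (ST6GALNAC1), chr9:76419850-76651203 (GCNT1), chr3:186930325-187078553 (ST6GAL1), chr14:65410592-65744121 (FUT8) and chr2:153871922-154453979 (GALNT13). In all, 40 of the 101 genes in LNCaP NT3 and 48 in 42D NT3 were above 1 CPM per kb.

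**Figure D1:**
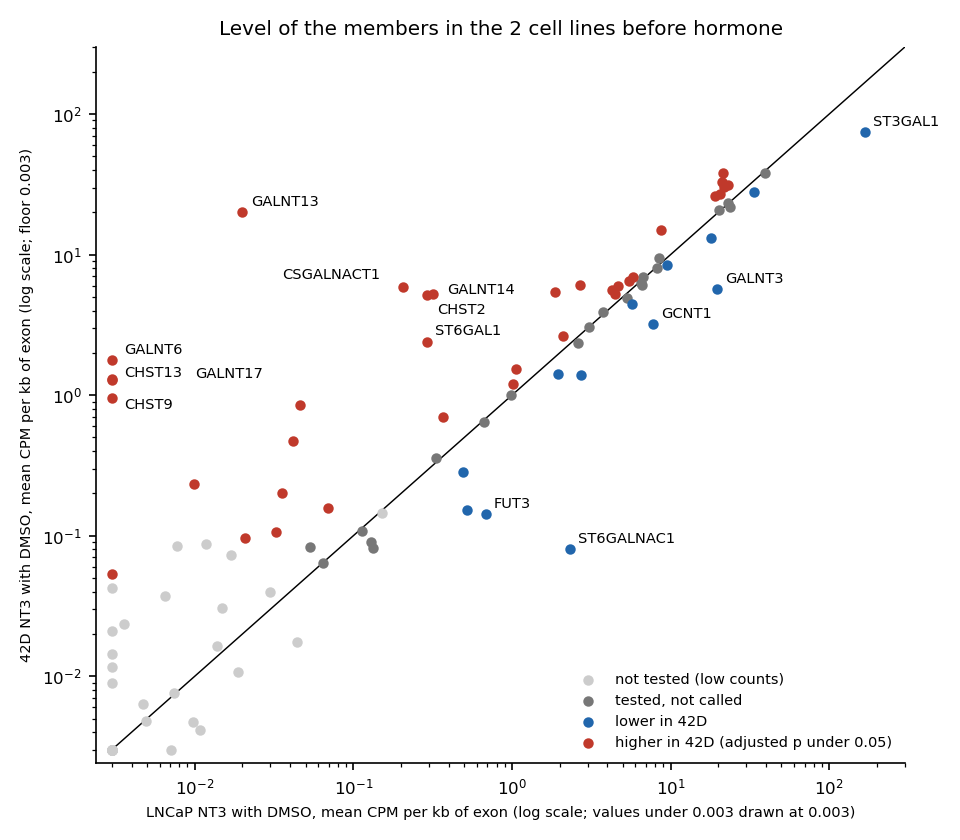
Mean level of each of the 101 genes in LNCaP NT3 with DMSO (horizontal axis) and 42D NT3 with DMSO (vertical axis), in CPM per kb of exon on log scales, 3 libraries per group; the line marks equal levels. Coloured points passed the test between the lines (35 higher in 42D, 13 lower). Of the 35, 13 passed the count filter within 42D alone, GALNT13 among them, so the filter largely sets their direction. GALNT13 lies farthest above the line among genes with counts in both and ST6GALNAC1 farthest below it.

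Before hormone, the 42D cells carried more than LNCaP of most tested sulfotransferases and of the initiating enzyme GALNT14. They carried less of the core 2 enzyme and of the sialyl-Tn synthase. The initiating enzymes GALNT13, GALNT6 and GALNT17 were also higher in 42D but passed the count filter there alone. Of the 69 genes tested, 48 differed between the NT3 lines with DMSO (edgeR quasi-likelihood test, adjusted p under 0.05), 35 higher and 13 lower in 42D. That is 69.6% of the members, beside 68.1% of all genes tested (34.8% higher and 33.3% lower). The median log2 difference was 0.24 over the members and 0.00 over all genes. These counts include 13 members that passed the count filter within 42D alone, all 13 higher there, and 3 that passed it within LNCaP alone, of which B3GNT9 was called lower. The filter largely sets the direction of such genes: of all genes that passed within 42D alone, 86.2% were higher there and 0.101% lower. Of the 53 members that passed in both cell lines, 22 were higher and 12 lower in 42D (64.2%, beside 67.6% of all such genes, 34% higher and 33.6% lower), with a median of 0.05 beside 0.00. In bulk RNA, fewer cells with a transcript and less of it per cell cannot be told apart.

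Of the 9 GALNT genes that passed the filter in both cell lines, 2 were higher in 42D, GALNT2 and GALNT14, and 3 were lower. That is 55.6% called, beside 67.6% of all such genes. GALNT6, GALNT13, GALNT15, GALNT16 and GALNT17 passed it within 42D alone and were called higher there, a direction that the filter largely sets. GALNT13 was at 130, 126 and 137 CPM in the 42D NT3 libraries and at 0.175, 0.215 and 0 CPM in LNCaP NT3, where no library held more than 3 counts. The difference was 9.91 on the log2 scale (SE 0.197, adjusted p = 1.87e-31), and GALNT13 made up 13.8 ± 0.761% of the summed GALNT level per length in 42D. GALNT6 had no count in LNCaP NT3 and was at 12.5, 11.9 and 14.5 CPM in 42D NT3, at least 201-fold higher against a floor of 3 counts over the group. GALNT17, likewise at 0 counts in LNCaP NT3, was at least 96.3-fold higher. GALNT14 was at 24.3, 25.5 and 21.8 CPM in 42D against 0.935, 1.58 and 1.81 in LNCaP (4.06, SE 0.171, adjusted p = 8.95e-22). GALNT3, which is known for glycosylating the phosphate hormone FGF23, went the other way, at 24.9, 28.4 and 26.6 CPM in 42D against 97.7, 87.8 and 90.6 (-1.79, SE 0.0684, adjusted p = 4.38e-23). For none of these genes did the groups overlap. The summed level per length of the family moved less than these members, from 129 ± 2.91 CPM per kb in LNCaP to 146 ± 1.84 in 42D.

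Both tested branching enzymes were lower in 42D, as were 33.6% of all genes that passed the filter in both cell lines. GCNT1 was at 30.8, 27.9 and 30.6 CPM in 42D NT3 and 72.8, 71.4 and 69.3 CPM in LNCaP NT3, groups that did not overlap (-1.25, SE 0.0684, adjusted p = 2.28e-18). GCNT2, which makes the branched I antigen, differed by -0.47 (SE 0.104, adjusted p = 0.000173). Of the 7 B4GALT genes, 5 were higher, beside 34% of all genes that passed in both lines, led by B4GALT2 with 0.83 (SE 0.0608). B4GALT1 was lower by -0.27 (SE 0.0811, adjusted p = 0.00400, and 0.0546 without LNCaP NT3 DMSO replicate 3).

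The sialyltransferases split. ST6GALNAC1 was at 0.179, 0.278 and 0.374 CPM in 42D NT3 with DMSO and at 6.43, 9.19 and 8.29 CPM in LNCaP NT3, all 42D libraries far below all LNCaP libraries (-4.80, SE 0.29, adjusted p = 4.8e-17). ST3GAL1 was at 654, 663 and 656 CPM against 1442, 1453 and 1561 CPM (-1.18, SE 0.0621, adjusted p = 9.26e-19). ST6GAL1, the enzyme that caps N-glycans with α2,6-linked sialic acid, was the reverse, at 20.5, 23.3 and 22.3 CPM in 42D and 3.27, 3.45 and 1.29 CPM in LNCaP (3.04, SE 0.209, adjusted p = 3.64e-14). The ganglioside sialyltransferase ST6GALNAC5 was at 3.17, 2.99 and 4.68 CPM in 42D and at most 0.359 CPM in LNCaP NT3 (4.17, SE 0.369, adjusted p = 3.78e-12). ST8SIA2, which makes polysialic acid, had 65 counts over the 42D group against 3 in LNCaP, a ratio of 21.4 (95% counting interval 7.31 to 104). ST6GALNAC5 and ST8SIA2 passed the count filter within 42D alone, so the filter largely sets their direction. ST8SIA4, the other polysialic acid synthase, did not pass the test and stood at 6.63, 10.1 and 6.67 CPM in 42D and 7.77, 10.2 and 5.05 CPM in LNCaP.

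Of the 7 CHST genes that passed the filter in both cell lines, 6 were higher in 42D and none was lower. Of all such genes, 34% were higher and 33.6% lower. CHST9 and CHST13 passed it within 42D alone, so the filter largely sets their direction. CHST2, which puts sulfate on GlcNAc, was at 21.5, 24.6 and 25.1 CPM in 42D NT3 and 1.81, 1.005 and 1.17 CPM in LNCaP NT3 (4.12, SE 0.153, adjusted p = 2.02e-23). The chondroitin 6-O-sulfotransferase CHST3 (1.18, SE 0.0807), the dermatan 4-O-sulfotransferase CHST14 (0.80, SE 0.0648) and CHST15, which adds a second sulfate to 4-sulfated chondroitin (1.53, SE 0.101), were higher as well. CHST9 and CHST13 had no count in LNCaP NT3 with DMSO and were at least 169-fold and 35.8-fold higher in 42D. CHST12 (0.25, adjusted p = 0.0464) lost its call in 6 of 11 alternatives, with adjusted p up to 0.124 and without any 1 of 5 libraries (all but LNCaP NT3 DMSO replicate 2), and CHST10 (0.26, adjusted p = 0.00614) lost it without 42D NT3 DMSO replicate 2 (adjusted p = 0.0979). Summed per length, the CHST genes stood at 20.8 ± 0.985 CPM per kb in LNCaP and 42.8 ± 1.15 in 42D.

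The pair of chondroitin-initiating enzymes differed from each other. CSGALNACT1 was at 44.2, 33.9 and 38.0 CPM in 42D NT3 and at 1.29, 0.790 and 2.01 CPM in LNCaP NT3, with no overlap (4.81, SE 0.237, adjusted p = 3.63e-17). CSGALNACT2 was at 26.1, 25.0 and 26.2 CPM in 42D and 25.8, 23.5 and 25.4 CPM in LNCaP, overlapping ranges. Per length, CSGALNACT1 thus made up 2.97 ± 1.22% of the pair in LNCaP and 45.9 ± 2.81% in 42D.

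The second comparison asked which of these genes respond to androgen. In LNCaP NT3, R1881 raised 8 and lowered 5 of the 56 genes tested, 23.2% of them beside 13.2% of all genes (8% higher and 5.15% lower). In 42D NT3 it raised 17 and lowered 17 of 66, 51.5% beside 25.3% of all genes (13.9% higher and 11.4% lower). The median log2 change over the members was 0.03 in LNCaP and 0.00 in 42D, beside -0.01 and 0.00 over all genes tested. All 13 genes called in LNCaP NT3 were called in the same direction in 42D NT3: B3GNT2, B4GALT1, B4GALT5, CHST2, CSGALNACT1, CSGALNACT2, GCNT1 and ST6GALNAC1 rose, and FUT8, GALNT10, ST3GAL1, ST6GALNAC4 and ST8SIA4 fell. The 2 NT3 comparisons share no libraries. How many of all genes were called alike in both lines was not counted, so this overlap has no background beside it. The 42D calls of B4GALT5, CSGALNACT1, CSGALNACT2 and GALNT10 were lost in some alternatives, as given below.

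Promoter windows are shown for 4 of these genes, CHST2, CSGALNACT2 and B4GALT1 as members that rose and FUT8 as one that fell in both lines, because they rose or fell together at 6 h. They are the 250 bases before the start of transcription from RefSeq on GRCh38.p14, 5′ to 3′ on the strand of the gene: chr3:143119521-143119770 (plus) for CHST2, chr10:43138195-43138444 (plus) for CSGALNACT2, chr9:33167337-33167586 (minus) for B4GALT1 and chr14:65410342-65410591 (plus) for FUT8. Capitals mark the androgen receptor half-site AGAACA read on either strand (TGTTCT on the strand printed).
CHST2: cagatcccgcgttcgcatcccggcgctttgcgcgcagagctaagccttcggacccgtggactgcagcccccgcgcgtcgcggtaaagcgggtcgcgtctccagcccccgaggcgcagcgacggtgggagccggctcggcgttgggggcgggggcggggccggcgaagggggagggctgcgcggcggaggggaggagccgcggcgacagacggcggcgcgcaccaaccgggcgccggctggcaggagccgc
CSGALNACT2: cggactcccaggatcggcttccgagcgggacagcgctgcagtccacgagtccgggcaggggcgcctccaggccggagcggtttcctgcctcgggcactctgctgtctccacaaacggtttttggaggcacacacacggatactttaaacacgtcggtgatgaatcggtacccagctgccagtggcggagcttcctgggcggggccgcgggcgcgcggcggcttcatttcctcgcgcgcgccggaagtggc
B4GALT1: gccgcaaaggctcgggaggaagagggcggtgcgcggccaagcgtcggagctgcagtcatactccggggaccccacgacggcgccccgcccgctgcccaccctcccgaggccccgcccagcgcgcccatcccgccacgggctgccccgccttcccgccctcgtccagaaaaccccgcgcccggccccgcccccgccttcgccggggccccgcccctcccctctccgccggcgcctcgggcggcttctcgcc
FUT8: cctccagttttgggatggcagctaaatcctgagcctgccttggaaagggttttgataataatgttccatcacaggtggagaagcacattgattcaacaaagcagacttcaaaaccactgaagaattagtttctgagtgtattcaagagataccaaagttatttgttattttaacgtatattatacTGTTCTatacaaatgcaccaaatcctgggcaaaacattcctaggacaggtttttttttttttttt
CHST2, CSGALNACT2 and B4GALT1 hold no half-site in these letters, and FUT8 holds 1. B4GALT1 and FUT8 have other starts in RefSeq too, and the windows at those starts hold no half-site. RefSeq windows of 250 bases before to 50 bases after the start were matched for 75 of the 101 genes. ST6GALNAC1 and CSGALNACT1, which rose in both NT3 lines, and ST3GAL1, which fell, were not among the 75. Some genes have several starts, so these 75 hold 122 windows. The half-site stood in 14 of the 122 windows (11.5%) and in 14.8% of the 35116 windows in the table. It stood in 0 of the 11 windows of the 6 matched genes that rose in both NT3 lines and in 1 of the 6 windows of the 4 that fell. A full element, AGAACA, 3 bases and TGTTCT, with at most 2 mismatches stood in 1 of the 122 windows, in none of the windows of those 10 genes and in 1.4% of all windows. Such matches describe letters in a window and not binding.

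**Figure D2:**
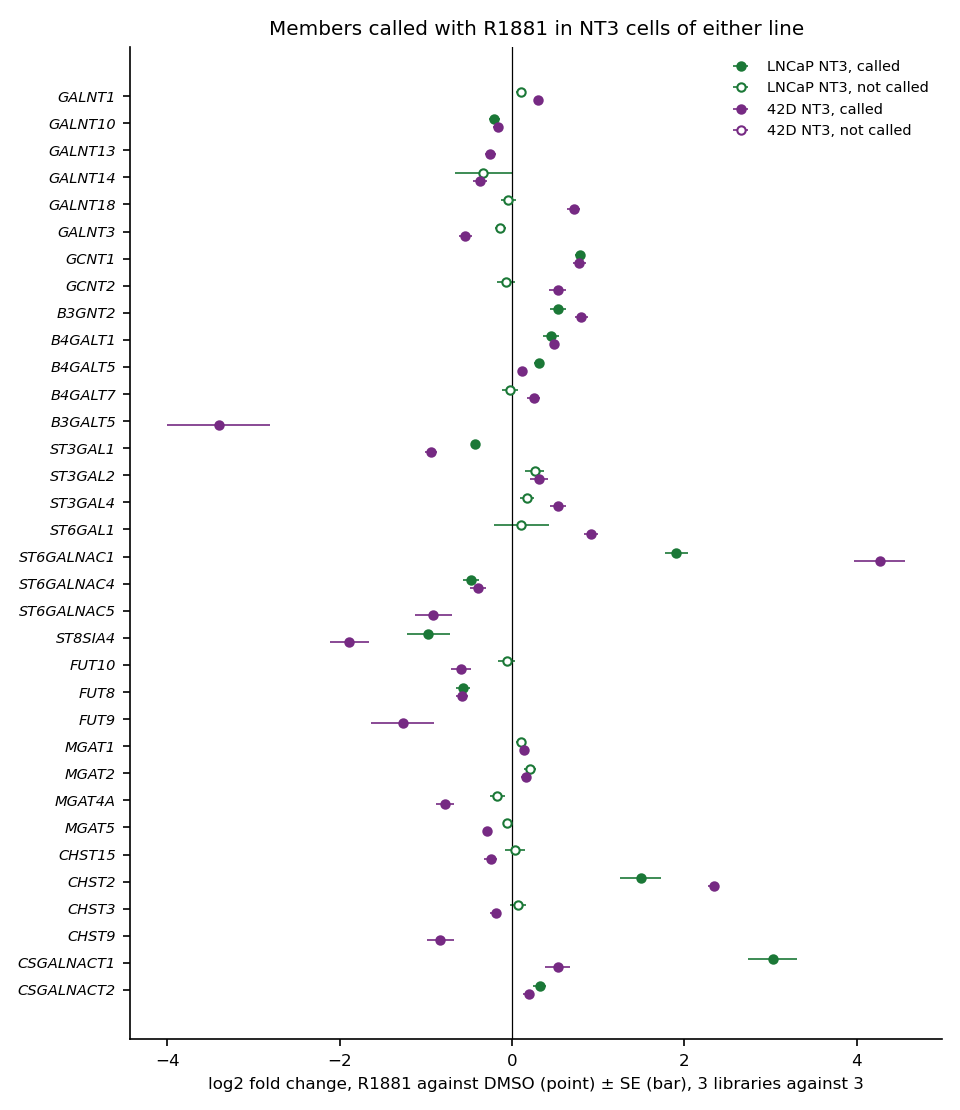
Log2 change with R1881 against DMSO (point) with its standard error (bar) for each of the 34 genes called in NT3 of either cell line, LNCaP in green and 42D in purple, 3 libraries against 3; filled points passed the test, and genes with no green point were not tested in LNCaP. ST6GALNAC1, CHST2 and CSGALNACT1 lie farthest to the right, and B3GALT5 and ST8SIA4 farthest to the left.

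Of the 10 GALNT genes tested in LNCaP, only GALNT10 was called with the hormone (-0.20, adjusted p = 0.0263), beside 13.2% of all genes tested. GALNT10, an enzyme that glycosylates partly glycosylated peptides, was at 85.9, 89.8 and 83.5 CPM with DMSO and 82.8, 73.2 and 69.8 CPM with R1881. Its groups came within 1 CPM of each other, and the call was lost in 5 of 11 alternatives (adjusted p up to 0.158), among them the fits without LNCaP NT3 DMSO replicate 1 or 2 or R1881 replicate 2 or 3. In 42D NT3, 2 of 14 rose and 4 fell, beside 13.9% and 11.4% of all genes tested. GALNT10 was among those that fell (-0.17, adjusted p = 0.0304). Its call was lost in 4 of 11 alternatives (adjusted p up to 0.177), without DMSO replicate 1, R1881 replicate 1 or R1881 replicate 2 among them. GALNT18 rose there from 15.9, 16.5 and 16.3 to 26.4, 28.1 and 24.3 CPM (0.72, SE 0.077, adjusted p = 2.02e-07), while in LNCaP NT3 it was at 20.1, 21.1 and 20.7 CPM before and 21.1, 18.9 and 20.4 CPM after. GALNT3 fell in 42D from 24.9, 28.4 and 26.6 to 17.3, 18.1 and 18.5 CPM (-0.54, SE 0.0743, adjusted p = 6.49e-06). The groups of GALNT18 and GALNT3 in 42D did not overlap.

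The branching enzyme GCNT1 and the extending enzymes B3GNT2 and B4GALT1 rose in both lines. GCNT1 rose from 72.8, 71.4 and 69.3 to 120, 132 and 119 CPM in LNCaP NT3 (0.79, SE 0.0567, adjusted p = 4.08e-11) and from 30.8, 27.9 and 30.6 to 52.6, 48.1 and 51.0 CPM in 42D NT3 (0.78, SE 0.0741, adjusted p = 2.9e-08). Every R1881 library was above every DMSO library of its line. B3GNT2, which extends poly-N-acetyllactosamine, rose from 14.0, 14.6 and 11.7 to 20.6, 20.5 and 17.2 CPM in LNCaP (0.53, SE 0.0939, adjusted p = 0.000145). In 42D, B3GNT2 went from 18.2, 16.2 and 16.7 to 32.3, 27.9 and 28.1 CPM (0.81, SE 0.0771, adjusted p = 3.36e-08). B4GALT1 changed by 0.45 (SE 0.0916, adjusted p = 0.00101) in LNCaP and 0.49 (SE 0.0436, adjusted p = 1.08e-08) in 42D. B4GALT5, a lactosylceramide synthase, rose by 0.31 (SE 0.0584, adjusted p = 0.00026) in LNCaP. In 42D its call (0.12, adjusted p = 0.0482) was lost in 10 of 11 alternatives, without any 1 of the 6 libraries compared among them, with adjusted p up to 0.188.

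B3GALT5, which makes type 1 chains, fell in 42D NT3 from 35 counts over the DMSO group to 3 over the R1881 group, a ratio of 11.9 (95% counting interval 4.07 to 57.7). In 42D sgT33-5 it went from 36 counts to 2, a ratio of 17.2 (4.77 to 142).

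ST6GALNAC1 rose the most in 42D. In LNCaP NT3 it went from 6.43, 9.19 and 8.29 to 27.9, 35.8 and 25.9 CPM (1.91, SE 0.131, adjusted p = 1.78e-11) and in 42D NT3 from 0.179, 0.278 and 0.374 to 5.20, 6.38 and 4.54 CPM (4.27, SE 0.294, adjusted p = 1.58e-10). The highest hormone-treated 42D library was just under the lowest untreated LNCaP NT3 library. Its share of the summed ST6GALNAC level per length went from 21.1 ± 2.81% to 57.9 ± 4.77% in LNCaP and from 0.745 ± 0.182% to 16.8 ± 2.13% in 42D. ST6GAL1 rose in 42D NT3 from 20.5, 23.3 and 22.3 to 43.6, 39.0 and 40.1 CPM (0.92, SE 0.0785, adjusted p = 5.99e-09). In LNCaP NT3, ST6GAL1 was at 3.27, 3.45 and 1.29 CPM before and 2.30, 4.52 and 1.87 CPM after, overlapping ranges that did not pass the test. The difference between these responses of ST6GAL1 did not pass its own test (0.78, adjusted p = 0.236).

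The remaining called sialyltransferases moved in both directions. ST3GAL4, which puts α2,3-linked sialic acid on lactosamine chains, rose in 42D NT3 from 30.8, 31.3 and 24.9 to 43.0, 42.6 and 38.5 CPM, groups that did not overlap (0.53, SE 0.0912, adjusted p = 0.000164). ST3GAL2 was called up there (0.31, adjusted p = 0.0329) with overlapping groups, and the call was lost in 5 of 11 alternatives, without DMSO replicate 1 or 2, without R1881 replicate 2 or 3 and with DESeq2 (adjusted p up to 0.176). In LNCaP NT3 neither ST3GAL4 (0.17, adjusted p = 0.166) nor ST3GAL2 (0.26, adjusted p = 0.126) passed. ST3GAL1 fell from 1442, 1453 and 1561 to 1118, 1071 and 1149 CPM in LNCaP NT3 (-0.42, SE 0.0537, adjusted p = 1.11e-06) and from 654, 663 and 656 to 331, 352 and 329 CPM in 42D NT3 (-0.94, SE 0.0694, adjusted p = 2.34e-08). ST3GAL1 went to 30.8 ± 0.996% of all member counts in LNCaP and to 10.2 ± 0.378% in 42D. ST6GALNAC4, which makes disialylated core 1, fell by 0.47 in LNCaP (SE 0.0936, adjusted p = 0.00056) and by 0.39 in 42D (SE 0.0918, adjusted p = 0.00258). ST6GALNAC5 fell in 42D from 3.17, 2.99 and 4.68 to 1.80, 2.15 and 1.72 CPM (-0.92, SE 0.215, adjusted p = 0.00263). ST8SIA4 fell in 42D from 6.63, 10.1 and 6.67 to 1.73, 2.26 and 2.15 CPM (-1.89, SE 0.23, adjusted p = 3.65e-06). In LNCaP, ST8SIA4 went from 7.77, 10.2 and 5.05 to 4.53, 4.65 and 2.54 CPM (-0.97, SE 0.248, adjusted p = 0.00814), a call lost without NT3 DMSO replicate 2, without NT3 R1881 replicate 3 and with only the 6 libraries compared (adjusted p up to 0.0743).

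FUT8, the core fucosyltransferase of N-glycans, fell in both lines. It went from 41.9, 49.1 and 40.1 to 28.1, 32.9 and 27.5 CPM in LNCaP NT3 (-0.57, SE 0.0837, adjusted p = 1.05e-05) and from 42.6, 43.2 and 39.99 to 28.8, 28.4 and 25.8 CPM in 42D NT3 (-0.58, SE 0.0682, adjusted p = 7.22e-07). No R1881 library reached a DMSO library of its line. None of the 5 MGAT genes tested passed in LNCaP, beside 13.2% of all genes tested. In 42D, MGAT4A, which starts an N-glycan branch, fell from 23.97, 24.95 and 27.1 to 13.7, 15.2 and 14.9 CPM (-0.77, SE 0.105, adjusted p = 7.46e-06) and the branching enzyme MGAT5 fell by 0.29 (SE 0.0398, adjusted p = 7.14e-06). MGAT1 (0.14) and MGAT2 (0.16), which act earlier in N-glycan branching, were called up in 42D, and each call was lost in 7 of 11 alternatives, with adjusted p up to 0.147 and 0.17. For MGAT1 these held the fits without 42D NT3 DMSO replicate 1 or 3 or R1881 replicate 2 or 3, and for MGAT2 those without any DMSO replicate or R1881 replicate 1 or 3.

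Of the sulfotransferases, CHST2 alone rose. It went from 1.81, 1.005 and 1.17 to 3.63, 4.99 and 2.87 CPM in LNCaP NT3 (1.49, SE 0.238, adjusted p = 3.64e-05) and from 21.5, 24.6 and 25.1 to 119, 114 and 122 CPM in 42D NT3 (2.34, SE 0.0629, adjusted p = 1.32e-17). With hormone CHST2 took 42.0 ± 1.55% of the summed CHST level per length in 42D NT3, from 12.1 ± 0.793% before, and 3.68 ± 0.837% in LNCaP NT3, from 1.40 ± 0.506%. In 42D NT3, CHST9, which sulfates GalNAc, fell from 11.5, 13.2 and 8.11 to 5.80, 6.91 and 5.39 CPM (-0.83, SE 0.161, adjusted p = 0.00054). CHST3 (-0.19, adjusted p = 0.0364) and CHST15 (-0.25, adjusted p = 0.0161) fell slightly there, and both calls depended on single libraries: CHST3 lost its call in 4 of 11 alternatives and CHST15 in 3, both without 42D NT3 DMSO replicate 3 and without R1881 replicate 3, CHST3 also without DMSO replicate 1 and CHST15 without R1881 replicate 2, with adjusted p up to 0.22 and 0.0922.

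Both chondroitin-initiating enzymes rose in both lines. CSGALNACT1 went from 1.29, 0.790 and 2.01 to 9.70, 12.1 and 12.2 CPM in LNCaP NT3 (3.03, SE 0.285, adjusted p = 1.47e-08) and from 44.2, 33.9 and 38.0 to 63.4, 48.7 and 53.7 CPM in 42D NT3 (0.53, SE 0.141, adjusted p = 0.0183). The 42D call was lost without DMSO replicate 2, DMSO replicate 3 or R1881 replicate 1 (adjusted p up to 0.0617). Even so, the untreated 42D libraries all stood above the hormone-treated LNCaP libraries. CSGALNACT2 rose from 25.8, 23.5 and 25.4 to 30.8, 32.4 and 30.5 CPM in LNCaP (0.32, SE 0.0735, adjusted p = 0.00272). In 42D, CSGALNACT2 went from 26.1, 25.0 and 26.2 to 29.1, 28.9 and 29.4 CPM, groups that did not overlap (0.20, SE 0.0628, adjusted p = 0.0251), and the call was lost in 7 of 11 alternatives, among them without any 1 of 5 libraries (all but 42D NT3 DMSO replicate 3), with adjusted p up to 0.0962. The share of CSGALNACT1 in the pair, per length, went from 2.97 ± 1.22% to 17.0 ± 1.70% in LNCaP and from 45.9 ± 2.81% to 51.7 ± 3.24% in 42D.

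**Figure D3:**
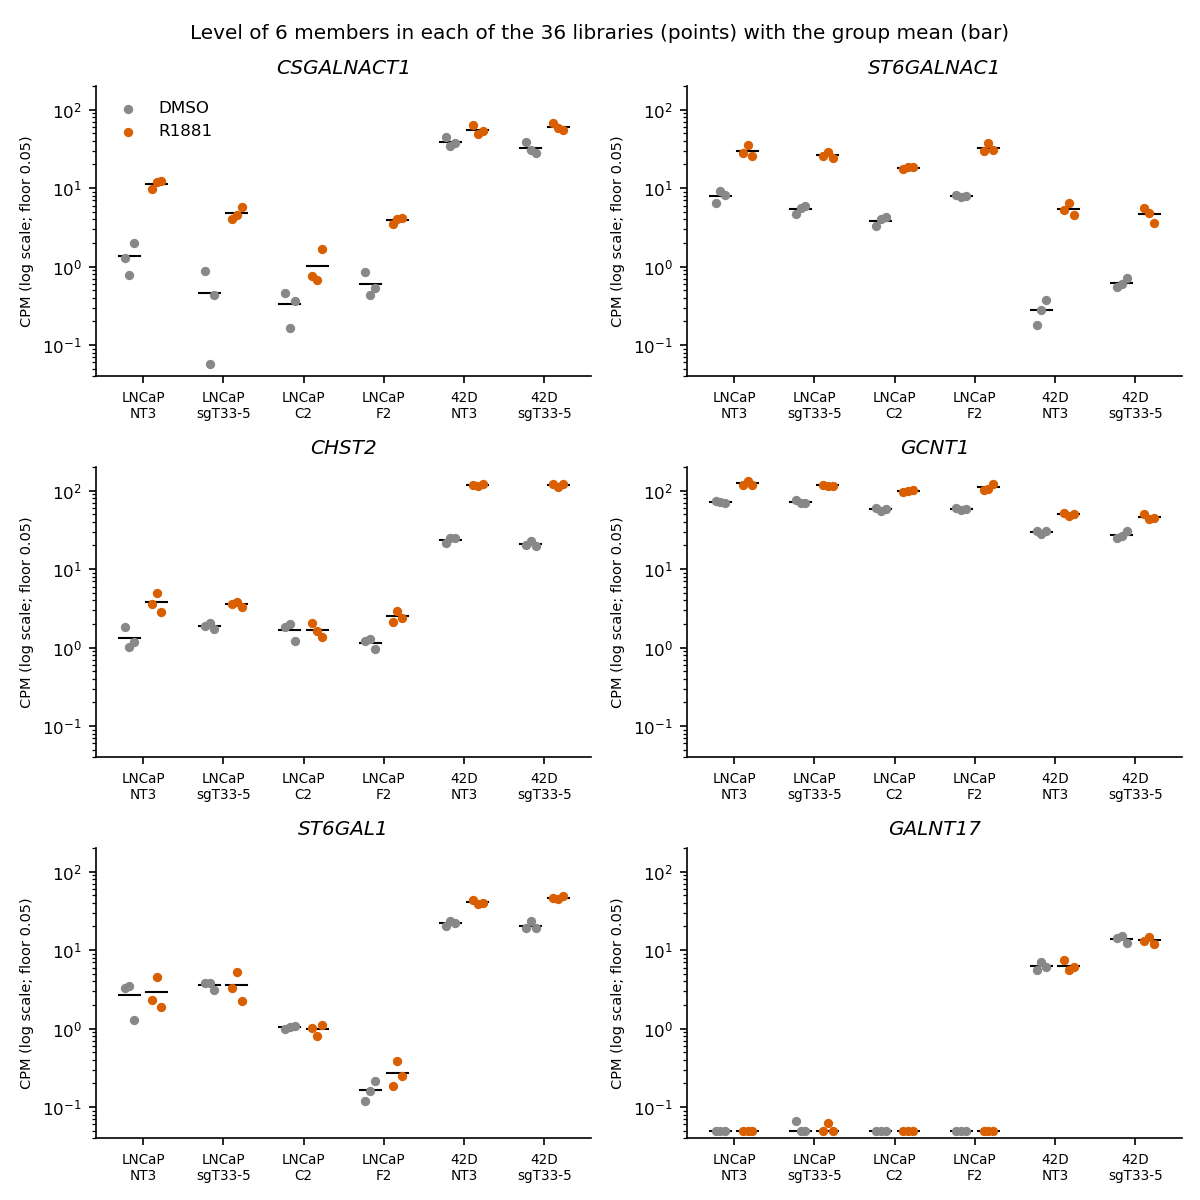
Level of 6 members (CPM, log scale, values under 0.05 drawn at 0.05) in each of the 36 libraries, by line and treatment, with the bar at the mean of 3 libraries. CSGALNACT1, CHST2 and ST6GAL1 stand higher in 42D than in any LNCaP line, ST6GALNAC1 and GCNT1 rise with R1881 in all 6 lines, and GALNT17 is at or near 0 in LNCaP.

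The hormone responses themselves differed between the NT3 lines for 11 of the 69 genes, 4 with a higher and 7 with a lower log2 change in 42D (15.9% of members, beside 3.85% of all genes tested, 1.82% higher and 2.03% lower). The median difference was 0.00 over the members and -0.02 over all genes. The response of CSGALNACT1 was smaller in 42D by -2.52 (SE 0.323, adjusted p = 3.71e-06) and that of ST6GALNAC1 larger by 2.33 (SE 0.395, adjusted p = 0.000111). Both genes started from opposite levels in the lines, as given above. GALNT18 (0.73, SE 0.114, adjusted p = 2.95e-05) and GCNT2 (0.57, SE 0.145, adjusted p = 0.0146) responded more in 42D. ST3GAL1 (-0.55, SE 0.087, adjusted p = 4.61e-05), MGAT4A (-0.63, SE 0.143, adjusted p = 0.00485) and GALNT3 (-0.43, SE 0.0994, adjusted p = 0.00533) fell more in 42D. The difference for CHST2 (0.83, SE 0.247, adjusted p = 0.0497) was lost in 9 of 17 alternatives, among them without replicate 1 or 3 of any of the 4 groups, with adjusted p up to 0.504. Those for MGAT5 (-0.26) and FUT10 (-0.56) were lost in 6 and 5 of 17, with adjusted p up to 0.134 and 0.118. Both were lost without 42D NT3 DMSO replicate 1, R1881 replicate 2 or R1881 replicate 3, MGAT5 also without LNCaP NT3 DMSO replicate 1, and FUT10 also without LNCaP NT3 R1881 replicate 3 or 42D NT3 DMSO replicate 3. The difference for B3GALT5 (-5.68, SE 1.44, adjusted p = 0.0146) rests on LNCaP NT3 libraries with at most 5 counts of it, and that for GCNT2 was lost without LNCaP NT3 DMSO replicate 2 or R1881 replicate 3 (up to 0.0666).

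In the guide lines, the hormone still moved some of these genes, fewest in C2. R1881 changed 16 of 56 in LNCaP sgT33-5 (10 up, 6 down; 28.6% beside 12.5% of all genes, 6.78% higher and 5.7% lower), 5 in C2 (3 up, 2 down; 8.93% beside 5.66%, 3.6% higher and 2.06% lower), 13 in F2 (9 up, 4 down; 23.2% beside 10.4%, 6.4% higher and 3.98% lower) and 37 of 66 in 42D sgT33-5 (20 up, 17 down; 56.1% beside 27.3%, 14.1% higher and 13.2% lower). The median changes were 0.06, -0.03, 0.00 and 0.08, beside 0.00, -0.01, -0.01 and -0.015 over all genes. Leaving out DMSO replicate 2 brought the count in LNCaP sgT33-5 to 10, as did leaving out both libraries with few mitochondrial counts. The 5 genes called in C2 were GCNT1 (0.76), ST6GALNAC1 (2.24), CSGALNACT2 (0.33), FUT8 (-0.38) and ST6GALNAC4 (-0.33). GCNT1 and ST6GALNAC1 rose and FUT8 fell in each of the 6 lines.

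The test of whether the response itself differed from that of NT3 called 1 gene, in C2 (0.689% of all genes, 0.0967% higher and 0.593% lower). CHST2 was at 1.84, 2.01 and 1.20 CPM with DMSO in C2 and at 2.04, 1.65 and 1.36 CPM with R1881, overlapping ranges, against the rise in NT3 (difference -1.51, SE 0.347, adjusted p = 0.0307). The CHST2 call was lost in 9 of 17 alternatives (adjusted p up to 0.171), among them without any 1 of NT3 DMSO replicate 2 or 3, NT3 R1881 replicate 1 or 2, C2 DMSO replicate 1 or 2, and C2 R1881 replicate 2 or 3. ST3GAL1 (0.305 to 0.33) was called there with DESeq2, RLE size factors, no count filter, the replicate block or only the libraries compared. No member was called in LNCaP sgT33-5 (0% of all genes) or F2 (0%), or in 42D sgT33-5 (0.123%), by edgeR or by DESeq2. At an unadjusted p under 0.05 there were 4, 3 and 4. With replicate numbers as a block, CSGALNACT1 was called in 42D sgT33-5 (0.39, adjusted p = 0.00949).

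The third set of comparisons set each guide line against NT3 at the same treatment. These comparisons share the NT3 libraries with each other and with the hormone response of NT3. With DMSO, the edgeR test called none of 56 genes in LNCaP sgT33-5, where 1.4% of all genes passed (0.509% higher and 0.889% lower). There, 8 had an unadjusted p under 0.05, and DESeq2 called 2, CSGALNACT1 and ST6GALNAC1, both lower. The edgeR test called 12 in C2 (2 higher, 10 lower, 21.4% beside 18.2% of all genes, 8.53% higher and 9.63% lower) and 16 in F2 (8 each way, 28.6% beside 16.7%, 8.94% higher and 7.73% lower). The F2 count was 9 without F2 DMSO replicate 2 and 10 without NT3 DMSO replicate 1. In 42D sgT33-5, 1 of 66 was called (1.52% beside 1.13%, 0.896% higher and 0.234% lower). The median differences were 0.00, 0.00, 0.03 and -0.03, beside 0.00, 0.00, -0.01 and 0.00 over all genes.

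With R1881, 2 genes were called in LNCaP sgT33-5 (3.57% beside 3.04% of all genes, 0.979% higher and 2.06% lower), 17 in C2 (3 higher, 14 lower; 30.4% beside 23%, 9.67% higher and 13.3% lower), 15 in F2 (6 higher, 9 lower; 26.8% beside 13.4%, 6.19% higher and 7.26% lower) and 1 in 42D sgT33-5 (1.52% beside 0.513%, 0.396% higher and 0.117% lower). The median difference was -0.02, -0.08, 0.03 and 0.01, beside -0.01, 0.00, -0.01 and 0.00 over all genes. The 2 genes in sgT33-5 were CSGALNACT1, lower, and the linker galactosyltransferase B3GALT6, higher (0.25, SE 0.0599, adjusted p = 0.0171). B3GALT6 lost its call in 5 of 12 alternatives, without NT3 R1881 replicate 1, sgT33-5 R1881 replicate 1 or sgT33-5 R1881 replicate 2 among them (adjusted p up to 0.113). With the replicate number as a block, which pairs these libraries, 5 genes were called there: those 2 with GALNT7 (-0.23), CHST15 (-0.38) and CSGALNACT2 (-0.24). The F2 count was 9 without NT3 R1881 replicate 2.

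CSGALNACT1 was lower with R1881 in each LNCaP guide line. It was at 9.70, 12.1 and 12.2 CPM in NT3, at 4.02, 4.53 and 5.79 CPM in sgT33-5, at 0.750, 0.681 and 1.67 CPM in C2 and at 3.50, 4.05 and 4.14 CPM in F2, so that all guide libraries lay below all NT3 libraries and C2 below the others. The log2 differences from NT3 were -1.24 for sgT33-5 (SE 0.233, adjusted p = 0.00284), -3.42 for C2 (SE 0.288, adjusted p = 2.94e-09) and -1.54 for F2 (SE 0.237, adjusted p = 6.83e-05). Without the libraries of few mitochondrial counts, the first was -1.13 (adjusted p = 0.0379). With DMSO, where no LNCaP guide library held more than 14 counts of it, the differences were -1.64 (adjusted p = 0.115), -2.04 (adjusted p = 0.00743) and -1.19 (adjusted p = 0.0746). The first, not called in the main fit, was called with DESeq2 (adjusted p = 0.0139), the replicate block (0.0362) and no count filter (0.000769). Within the guide lines, R1881 still raised CSGALNACT1 in sgT33-5 (3.43, SE 0.393, adjusted p = 5.6e-07) and in F2 (2.68, SE 0.367, adjusted p = 8.95e-06). In C2 its response was not called, and its share of the pair per length was 0.899 ± 0.379% with DMSO and 2.23 ± 1.16% with R1881. The test of whether the C2 response differed from that of NT3 did not call CSGALNACT1 either, so a lost response is not shown. In 42D sgT33-5, CSGALNACT1 was at 67.9, 59.1 and 55.5 CPM with R1881 beside 63.4, 48.7 and 53.7 CPM in NT3, overlapping ranges (0.13, SE 0.135, adjusted p = 0.863). The difference of CSGALNACT1 between guide line and NT3 was itself different between 42D and LNCaP sgT33-5 (1.38, SE 0.259, adjusted p = 0.00235); it was the 1 member called of 69, beside 1.32% of all genes (1.15% higher and 0.163% lower). The fall of TRIM33 mRNA also differed between these lines (0.57, SE 0.097, adjusted p = 0.00054), and its part in the result was not tested.

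CSGALNACT2, the partner enzyme, differed less. With R1881 it was at 30.8, 32.4 and 30.5 CPM in NT3, at 26.7, 24.5 and 25.5 CPM in C2 (-0.28, SE 0.0723, adjusted p = 0.00521) and at 25.5, 24.8 and 27.9 CPM in F2 (-0.26, SE 0.0727, adjusted p = 0.0159), both below NT3 in every library. The F2 call was lost in 5 of 11 alternatives, among them without NT3 R1881 replicate 2, F2 R1881 replicate 1 or F2 R1881 replicate 2 (adjusted p up to 0.0836). With DMSO, CSGALNACT2 differed by -0.29 in C2 (adjusted p = 0.00837) and by -0.27 in F2 (adjusted p = 0.0129; up to 0.066 without NT3 DMSO replicate 1 or F2 DMSO replicate 2).

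**Figure D4:**
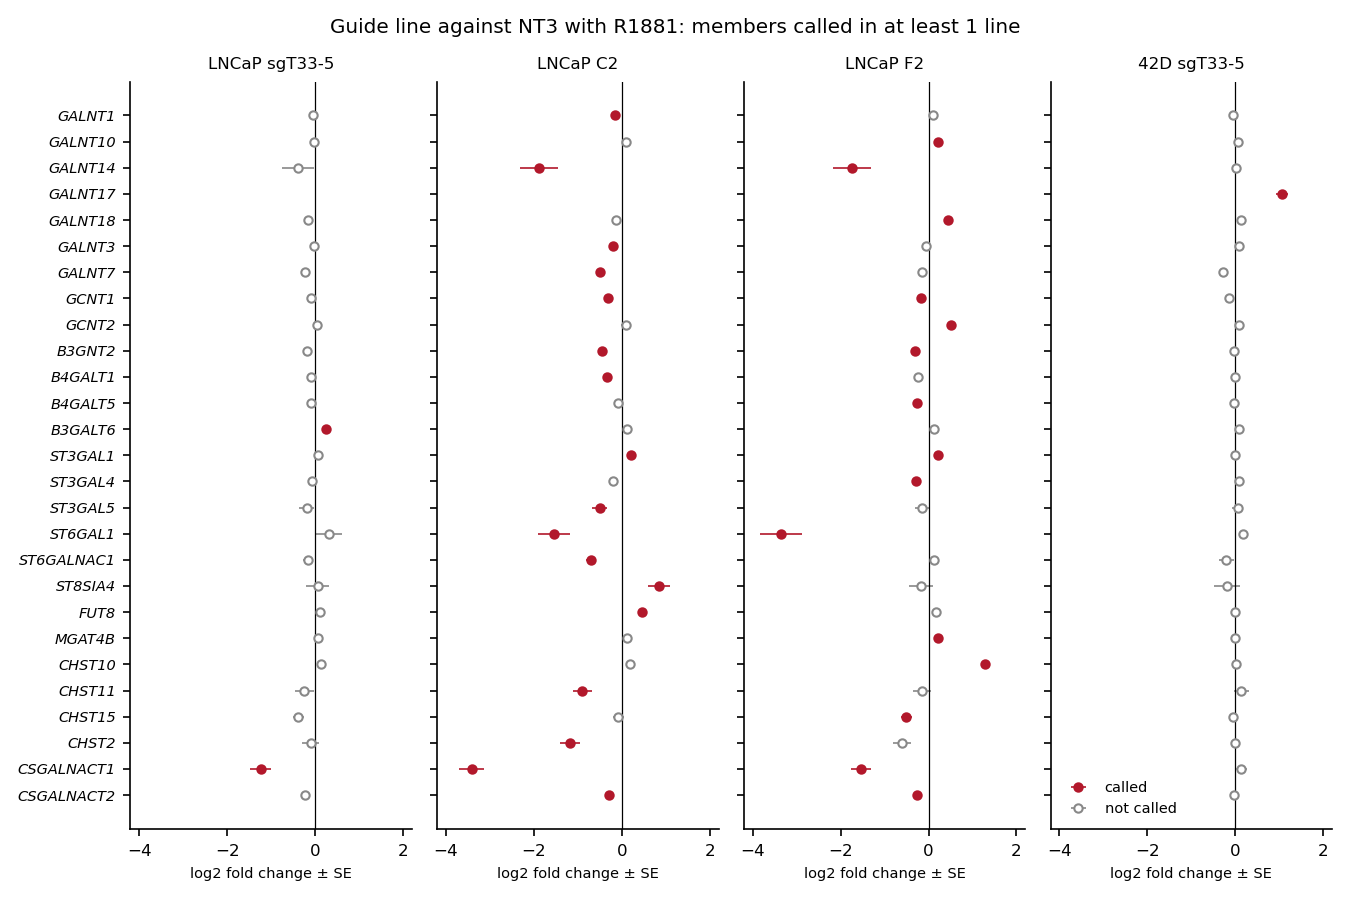
Log2 difference of each guide line from NT3 with R1881 (point) with its standard error (bar), 1 panel per line, 3 libraries against 3, for the members called in at least 1 line; filled points passed the test and GALNT17 was not tested in LNCaP. CSGALNACT1 lies left of 0 in the 3 LNCaP panels, ST6GAL1 and GALNT14 in C2 and F2, and CHST10 lies right of 0 in F2.

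C2 and F2 had lower ST6GAL1 at both treatments, while in LNCaP sgT33-5 it was not called at either (0.42 with DMSO). With DMSO, ST6GAL1 was at 3.27, 3.45 and 1.29 CPM in NT3, at 0.977, 1.06 and 1.08 CPM in C2 (-1.35, SE 0.374, adjusted p = 0.0136) and at 0.121, 0.163 and 0.215 CPM in F2 (-3.93, SE 0.535, adjusted p = 1.41e-05), where no library held more than 4 counts. With R1881 the differences were -1.55 (SE 0.368, adjusted p = 0.00323) and -3.36 (SE 0.485, adjusted p = 3.06e-05). All C2 libraries lay below all NT3 libraries, and all F2 libraries below all C2 libraries. The DMSO call in C2 was lost without NT3 DMSO replicate 1, NT3 DMSO replicate 2 or C2 DMSO replicate 1 (adjusted p up to 0.0789). GALNT14, at 0.935, 1.58 and 1.81 CPM in NT3 with DMSO, was at 0.345, 0.279 and 0.301 CPM in C2 (-2.18, SE 0.414, adjusted p = 0.000478). In F2, GALNT14 was at 0.725, 0.488 and 0.592 CPM (-1.24, SE 0.359, adjusted p = 0.0178), a call lost without NT3 DMSO replicate 2 or 3 or F2 DMSO replicate 2 or 3 (adjusted p up to 0.0907). In both lines GALNT14 was lower with R1881 too (-1.88, adjusted p = 0.00193, and -1.74, adjusted p = 0.0068).

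Other members differed in C2 with R1881, and some of these differed with DMSO too. With R1881, ST6GALNAC1 was at 17.5, 18.8 and 18.6 CPM in C2 beside 27.9, 35.8 and 25.9 CPM in NT3 (-0.70, SE 0.116, adjusted p = 5.85e-05), with no overlap. GCNT1 was at 95.4, 98.97 and 100.4 CPM in C2 beside 120, 132 and 119 CPM (-0.32, SE 0.0554, adjusted p = 8.79e-05). CHST2 (-1.18, SE 0.221), B3GNT2 (-0.45, SE 0.0915) and B4GALT1 (-0.34, SE 0.091) were lower as well, B4GALT1 with an adjusted p of 0.00814 that became 0.0529 without NT3 R1881 replicate 3. GALNT7, an enzyme that acts on partly glycosylated peptides, was lower by -0.50 (SE 0.0927, adjusted p = 0.000382), and the chondroitin 4-O-sulfotransferase CHST11 by -0.90 (SE 0.221, adjusted p = 0.00386; 0.111 without NT3 R1881 replicate 2). The 3 higher genes were among those R1881 lowered in NT3: FUT8 at 41.7, 41.7 and 38.2 CPM beside 28.1, 32.9 and 27.5 CPM (0.46, SE 0.0831, adjusted p = 0.000155), ST8SIA4 (0.85, SE 0.245, adjusted p = 0.0136; 0.0758 without NT3 R1881 replicate 3) and ST3GAL1 (0.21, SE 0.0536, adjusted p = 0.00456). With DMSO, ST6GALNAC1 (-1.03, SE 0.166, adjusted p = 6.18e-05), GALNT7 (-0.67, adjusted p = 1.9e-05) and GCNT1 (-0.30, adjusted p = 0.000668) were already lower in C2 than in NT3. FUT8 was already higher (0.27, adjusted p = 0.0178), a call lost without NT3 DMSO replicate 1, NT3 DMSO replicate 3 or C2 DMSO replicate 2 (adjusted p up to 0.138). With DMSO CHST2 (0.33, adjusted p = 0.44), B3GNT2 (-0.16, adjusted p = 0.282), B4GALT1 (-0.18, adjusted p = 0.195), CHST11 (-0.54, adjusted p = 0.106), ST8SIA4 (0.24, adjusted p = 0.509) and ST3GAL1 (-0.09, adjusted p = 0.26) did not pass. Because the NT3 R1881 libraries enter both comparisons, such opposite signs are no independent evidence.

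CHST10 was higher in F2 than in NT3 at both treatments. CHST10, which sulfates the HNK-1 epitope, was at 49.3, 47.2 and 46.6 CPM in F2 and 24.3, 28.5 and 25.5 CPM in NT3 with DMSO (0.88, SE 0.0734, adjusted p = 2.99e-09). With R1881, CHST10 was at 60.1, 60.2 and 66.9 CPM beside 25.4, 27.3 and 24.6 CPM (1.27, SE 0.073, adjusted p = 3.29e-12). Every F2 library was above every NT3 library, while C2 with R1881 stood at 29.4, 31.1 and 27.3 CPM. Within F2, R1881 raised CHST10 by 0.38 (SE 0.0687, adjusted p = 0.000289), but the difference from the response in NT3 did not pass (0.40, adjusted p = 0.5). GALNT18 (0.46 with DMSO and 0.45 with R1881), GCNT2 (0.39 and 0.51) and the N-glycan branching enzyme MGAT4B (0.24 and 0.22) were also higher in F2 at both treatments, and CHST15 was lower (-0.53 and -0.51). The CHST15 call with R1881 was lost without NT3 R1881 replicate 2 (adjusted p = 0.0706).

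In 42D sgT33-5 the called gene at both treatments was GALNT17. It was at 14.2, 15.1 and 12.2 CPM with DMSO beside 5.56, 7.16 and 6.05 CPM in NT3 (1.16, SE 0.126, adjusted p = 1.31e-05), and at 13.1, 14.8 and 12.1 CPM with R1881 beside 7.404, 5.6 and 6.07 CPM (1.06, SE 0.127, adjusted p = 7.99e-05). The groups did not overlap at either treatment. With the replicate number as a block, which pairs the R1881 libraries of these lines, GALNT7 was called too (-0.28, adjusted p = 5.3e-05).

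The genes around these enzymes were described from lists of pathway partners. Beside the list counts with R1881 in NT3 stand the shares of all genes called, 13.2% in LNCaP (8% higher and 5.15% lower) and 25.3% in 42D (13.9% higher and 11.4% lower), and all-gene medians of -0.01 and 0.00. Of the 22 genes of chondroitin and dermatan sulfate synthesis, 18 were tested in LNCaP, where R1881 raised 3 and lowered 1, and 21 in 42D, where it raised 6 and lowered 4; the median changes were 0.05 and 0.02. The polymerase CHSY1 rose from 88.4, 89.0 and 85.9 to 149, 147 and 126 CPM in LNCaP NT3 (0.67, SE 0.0588, adjusted p = 1.65e-09) and by 0.52 in 42D NT3 (SE 0.0462, adjusted p = 1.18e-08). DSEL, an epimerase that turns chondroitin into dermatan, fell by 0.17 in LNCaP (adjusted p = 0.0439) and from 117, 124 and 127 to 50.7, 55.6 and 48.6 CPM in 42D (-1.23, SE 0.0937, adjusted p = 3.04e-07). The uronyl 2-sulfotransferase UST rose in 42D (0.71, SE 0.173, adjusted p = 0.00354). With R1881, the sgT33-5 line of LNCaP had 2 list genes higher and 3 lower than NT3, the C2 line 1 and 6, the F2 line 2 and 4, and 42D sgT33-5 none, beside 3.04%, 23%, 13.4% and 0.513% of all genes. CHSY1 was among the lower genes in sgT33-5 (-0.27) and C2 (-0.34), UST in C2 (-0.71), and DSEL in sgT33-5 (-0.59) and F2 (-0.68). Of the 18 that passed the filter in both cell lines, 11 were higher and 3 lower in 42D before hormone (77.8%, beside 67.6% of all such genes), with a median of 0.30 beside 0.00. The other 3 passed within 42D alone and were called higher there, a direction that the filter largely sets. The polymerase CHSY3 was among them (5.09, SE 0.333, adjusted p = 4.42e-16).

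Of the heparan sulfate enzymes, 2 of 13 tested rose and 1 fell in LNCaP and 3 of 15 rose and 4 fell in 42D (medians -0.07 and -0.03). HS3ST1, a 3-O-sulfotransferase, rose from 8.24, 6.89 and 9.45 to 21.8, 23.2 and 19.0 CPM in LNCaP (1.37, SE 0.157, adjusted p = 2.75e-07) and by 0.67 in 42D (SE 0.128, adjusted p = 0.00115). With R1881, HS3ST1 was lower in C2 (-1.25, adjusted p = 7.96e-07) and in F2 (-0.94, adjusted p = 7.95e-05). Of the 13 and 14 proteoglycan core proteins tested, 0 rose and 1 fell in LNCaP, and 1 rose and 2 fell in 42D. The fall in LNCaP was that of syndecan SDC4, which fell in both lines (-0.85, SE 0.094, adjusted p = 2.74e-07, and -1.37, SE 0.107, adjusted p = 9.43e-09). The median changes were -0.08 and -0.07. Of the 13 core proteins that passed the filter in both cell lines, 11 were higher in 42D than in LNCaP before hormone and 1 was lower (92.3%, beside 67.6% of all such genes), with a median of 1.14 beside 0.00.

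Of the enzymes that supply sugar and sulfate donors, R1881 raised 3 of 23 in LNCaP NT3 and 6 of 24 in 42D NT3 and lowered none (medians 0.06 and 0.09), shares near the 13.2% and 25.3% of all genes called. UAP1, which makes UDP-GlcNAc, went from 323, 318 and 348 to 599, 615 and 640 CPM in LNCaP (0.90, SE 0.0859, adjusted p = 2.86e-08) and rose by 0.61 in 42D (SE 0.0414, adjusted p = 1.29e-10). UGDH, the source of UDP-glucuronic acid for chondroitin, rose in 42D from 161, 168 and 162 to 307, 269 and 269 CPM (0.80, SE 0.0476, adjusted p = 1.24e-11). PGM3, the step before UAP1, was lower than NT3 with R1881, by -0.37 for sgT33-5, -0.76 for C2 and -0.22 for F2. Of the Golgi transporters that bring these donors in, none of 12 was called with R1881 in LNCaP NT3, and 1 of 13 rose and 2 fell in 42D NT3. SLC35D1, the transporter of UDP-glucuronic acid and UDP-GalNAc that chondroitin synthesis uses, had no count in LNCaP NT3 and was at 18.4, 18.4 and 16.2 CPM in 42D NT3 with DMSO, at least 273-fold higher. SLC35D1 passed the count filter within 42D alone, so the filter largely sets its direction. Of 17 other O-glycan and ganglioside enzymes, none was called in LNCaP NT3 and 2 rose and 3 fell in 42D NT3. Of the 7 mucins and other O-glycan carriers tested, none was called in LNCaP NT3, while MUC20 (1.09) and CD24 (0.30) rose and CD55 (-0.63), PODXL (-0.21) and GOLM1 (-0.12) fell in 42D NT3.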

How the data were processed

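The deposited table holds raw read counts per gene, with coordinates and symbols, for 36 libraries; per the submitters' processing notes, the authors trimmed reads with cutadapt and aligned them with HISAT2 2.1.0 to hg38 (GRCh38). The counting tool, its strand setting and the annotation release are not given in the sources used here. From these deposited counts, edgeR 4.0.16 (R 4.3.3; TMM scaling, filterByExpr, robust quasi-likelihood test) was fitted to the 24 LNCaP libraries (15519 genes tested), to the 12 libraries of 42D (15403) and to all 36 (16564, for differences between cell lines), with Benjamini-Hochberg adjustment over all genes tested and a threshold of 0.05. Standard errors were taken from the fold change and its F value. CPM used TMM-adjusted totals, and levels between genes used exon length. The scripts were tested on simulated data. 1 row without an Ensembl ID held 0 counts, and 20418 rows carry no symbol.

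Members and lists were chosen with earlier results of these data known. Named genes were those called in both NT3 lines or in all 3 LNCaP guide lines, up to 8 per direction and comparison with a mean of at least 1 CPM, and both CSGALNACT genes; from each list of other genes, the called genes with the largest changes were named, and others that follow a named gene were picked after their values were seen. Alternatives were RLE size factors, no count filter, DESeq2 1.42.0, the replicate number as a block, only the libraries compared, and each library left out. The main fits modelled the groups alone and used no replicate block, also where libraries were taken as paired. Replicate numbers in the titles were taken to pair libraries where same-numbered libraries deviated together in every pair (correlation over 0.1). This held for the R1881 responses of F2 (0.157 to 0.293), 42D NT3 (0.133 to 0.190) and 42D sgT33-5 (0.145 to 0.235), for F2 against NT3 with DMSO (0.129 to 0.233), and with R1881 for LNCaP sgT33-5 (0.136 to 0.265) and 42D sgT33-5 (0.126 to 0.218). It also held for the difference of the sgT33-5 effect with R1881 between the cell lines (0.126 to 0.265). Counting intervals and floors of 3 counts cover counting error only.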

Additional observations from a re-analysis of the deposited data

Results flagged for a closer look

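The R1881 response differed between 42D NT3 and LNCaP NT3, by a test of the difference itself, for 11 members, given here as the log2 response in 42D minus that in LNCaP. It was smaller, or more negative, in 42D for B3GALT5 (-5.681), CSGALNACT1 (-2.521), MGAT4A (-0.631), FUT10 (-0.557), ST3GAL1 (-0.546), GALNT3 (-0.434) and MGAT5 (-0.259). It was larger in 42D for GCNT2 (0.571), GALNT18 (0.731), CHST2 (0.826) and ST6GALNAC1 (2.334). The same kind of test set the response of CHST2 in C2 below that in NT3 by -1.512 (adjusted p = 0.0307). The difference of CSGALNACT1 between sgT33-5 and NT3 with R1881 was higher in 42D than in LNCaP by 1.381 (adjusted p = 0.00235). Groups of 3 libraries were not tested for single outlying libraries.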

How the results depend on the processing

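Of the 228 calls of members with a mean of at least 1 CPM, 158 were kept under every alternative run and 70 were lost under at least 1; none changed direction. Fitting only the libraries compared lost 25 of them, DESeq2 lost 12, dropping the count filter lost 12 and RLE size factors lost 1. Without a count filter, the members called numbered 8 instead of 5 for the R1881 response of C2, 2 instead of 0 for LNCaP sgT33-5 against NT3 with DMSO, and 3 and 2 instead of 1 for 42D sgT33-5 against NT3 with DMSO and with R1881. DESeq2 gave 2 for LNCaP sgT33-5 with DMSO and 2 for 42D sgT33-5 with R1881. The change of response in C2 gave 2 instead of 1 with RLE size factors, without a filter, with the block and with DESeq2. With only the libraries compared, LNCaP sgT33-5 with R1881 gave 1 instead of 2 and F2 with R1881 gave 9 instead of 15. Without the libraries of few mitochondrial counts, an alternative chosen after seeing the data, the R1881 response of LNCaP sgT33-5 gave 10 instead of 16 and its difference from NT3 with R1881 gave 1. Leaving out each library gave 10 to 14 for the R1881 response of LNCaP sgT33-5, 0 to 1 for LNCaP sgT33-5 with DMSO, 1 to 3 for it with R1881, 9 to 15 for F2 with DMSO, 9 to 17 for F2 with R1881 and 0 to 2 for the change of response in C2. Members under 1 CPM rest on few counts in each library. The cause of these shifts was not tested.

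With the replicate number as a block, the members called numbered 9 for the R1881 response of C2, 3 for LNCaP sgT33-5 with DMSO, 4 for 42D sgT33-5 with DMSO, 5 for LNCaP sgT33-5 with R1881, 23 for F2 with R1881, 2 for 42D sgT33-5 with R1881, 2 for the change of response in C2 and 1 for that in 42D. The block lost 0 of the 228 calls. Every library correlated best with its own number (24 of 24 in LNCaP and 12 of 12 in 42D), a hint from the data rather than the design.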
